A study of Arabidopsis thaliana with 34 samples.

Results

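SAUR19, SAUR20, SAUR21, SAUR22, SAUR23 and SAUR24 are 6 auxin-responsive growth genes of Arabidopsis thaliana that lie together on chromosome 5. They were chosen by gene identifier (AT5G18010, AT5G18020, AT5G18030, AT5G18050, AT5G18060 and AT5G18080), and all 6 were found among the 22534 genes measured in seedlings or rosettes. The study set out to find genes acted on by VRN2, a component of Polycomb repressive complex 2 (PRC2), which places the repressive mark H3K27me3 on histones. It combined mRNA sequencing of mutants with chromatin immunoprecipitation of tagged VRN2 and of H3K27me3, 34 samples in all. Seedling mRNA was sequenced from wild-type Col-0, from the VRN2 mutant vrn2-5, from prt6-1, a mutant in the ubiquitin ligase PRT6 of the N-degron pathway through which VRN2 is broken down, and from the vrn2-5 prt6-1 double mutant, with 3 libraries of each. Rosette mRNA came from pif4-2 and from vrn2-5 pif4-2, with 2 libraries of each, so every rosette library carries a mutation in PIF4, a transcription factor that drives growth. VRN2-YFP was precipitated from vrn2-5 seedlings with a VRN2-YFP transgene driven by the gene's own VRN2 promoter (3 replicates), and H3K27me3 from Col-0 and vrn2-5 seedlings (3 replicates each), all with inputs. The sources used here do not give age, light or temperature. Nothing in the labels says that replicates are separate plantings, so p-values reflect the spread among the samples at hand, and that spread may be technical.

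Small auxin up RNA (SAUR) genes encode short, unstable proteins that appear soon after auxin rises. Members of the SAUR19 subfamily inhibit phosphatases of the PP2C.D clade, which otherwise switch off the H+-ATPases of the plasma membrane. With the phosphatases held back the proton pumps stay active, the cell wall is acidified and cells expand, and PIF transcription factors, auxin response factors and brassinosteroid signalling are known to activate these genes in growing shoots.

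Seedling levels are the authors' reads divided by 1 size factor per library, called normalized reads below. Depth was uneven: 1208836 to 27853214 recovered reads per seedling library, with 6 shallow and 6 deep libraries, against 15912781 to 26322823 counts per rosette library. One read stood for 0.205 to 5.00 normalized reads, and the 6 SAUR genes together rested on 69 to 5198 reads per seedling library. VRN2 mRNA checked the vrn2-5 label: it was lower in every library so labelled, at 116 to 163 normalized reads in Col-0, 45.0 to 50.3 in vrn2-5, 118 to 135 in prt6-1 and 36.7 to 76.8 in the double mutant. In rosettes it had 18.3 to 18.6 CPM (counts scaled to a common library total) in pif4-2 and 5.62 to 6.98 in vrn2-5 pif4-2. PRT6 mRNA was not lower in libraries labelled prt6-1 (49.6 to 142 normalized reads, against 0 to 57.7 in Col-0), so that label is used as given, and pif4-2 cannot be checked because both rosette groups carry it. The tissue labels were checked with 3 shoot markers and 3 root markers: all 3 shoot markers had reads in every library, and so did all 3 root markers in seedlings. The whole root list summed to 321 to 574 normalized reads in Col-0, 249 to 396 in vrn2-5, 454 to 521 in prt6-1 and 495 to 511 in the double mutant. The shoot list summed to 242303 to 412357, 303164 to 339422, 213026 to 312898 and 165545 to 303780 in the same order. The part of these markers in the results below was not tested, and in such bulk tissue fewer cells of a type cannot be told apart from less RNA per cell.

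The 6 genes span 21536 bp (chromosome 5, 5962773 to 5984308 in TAIR10), and each is short, 603 to 839 bp. SAUR19 (5962773 to 5963405), SAUR20 (5966183 to 5966785) and SAUR22 (5974341 to 5975087) lie on the minus strand. SAUR21 (5968352 to 5969190), SAUR23 (5975780 to 5976589) and SAUR24 (5983683 to 5984308) lie on the plus strand. Because the copies resemble each other, reads may have been divided among them in counting, so the value of any single member is uncertain and the sum over the 6 is given as well.

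In Col-0 seedlings all 6 genes were expressed at similar levels. Per kilobase of gene, the mean level ran from SAUR21 at 111 normalized reads (SD 27.3, n = 3) through SAUR20 at 94.6 (SD 25.6), SAUR22 at 85.3 (SD 8.44), SAUR19 at 78.0 (SD 31.7) and SAUR24 at 74.7 (SD 18.4) down to SAUR23 at 52.0 (SD 19.9). The library ranges of every pair of neighbours in that order overlapped, so the order is not resolved. Averaged over the 12 seedling libraries and per kilobase, SAUR23 stood above 65.7% of 17830 genes and SAUR21 above 80.1%. The double mutant kept SAUR21 first and SAUR23 last, at 286 (SD 138) and 152 (SD 48.4) normalized reads per kilobase, again with all neighbouring ranges overlapping.

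In vrn2-5 seedlings the mean of each of the 6 genes was above that of Col-0, as the log2 difference was for 49.7% of all genes, but none passed the test over all genes. SAUR23 read 45.0, 24.8 and 56.6 normalized reads in the Col-0 libraries, against 74.8, 84.9 and 63.7 in vrn2-5. SAUR22 read 60.0, 60.2 and 71.0 in Col-0, against 92.1, 105 and 107 in vrn2-5. For these 2 genes every vrn2-5 library lay above every Col-0 library, a pattern seen in this direction for 2.74% of all genes tested. SAUR20 read 60.0, 70.8 and 40.4 in Col-0, against 148, 120 and 70.4 in vrn2-5, so that the groups met within 1 normalized read at replicate 3 of vrn2-5. SAUR24 read 60.0, 38.9 and 41.3 in Col-0, against 113, 145 and 40.2 in vrn2-5. SAUR21 read 116, 92.1 and 70.4 in Col-0, against 175, 225 and 73.7 in vrn2-5. In both genes replicates 1 and 2 of vrn2-5 lay above Col-0 and replicate 3 lay within its range. SAUR19 read 71.2, 31.9 and 45.0 in Col-0, against 72.4, 55.0 and 63.7 in vrn2-5, and its groups overlapped widely.

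**Figure D1:**
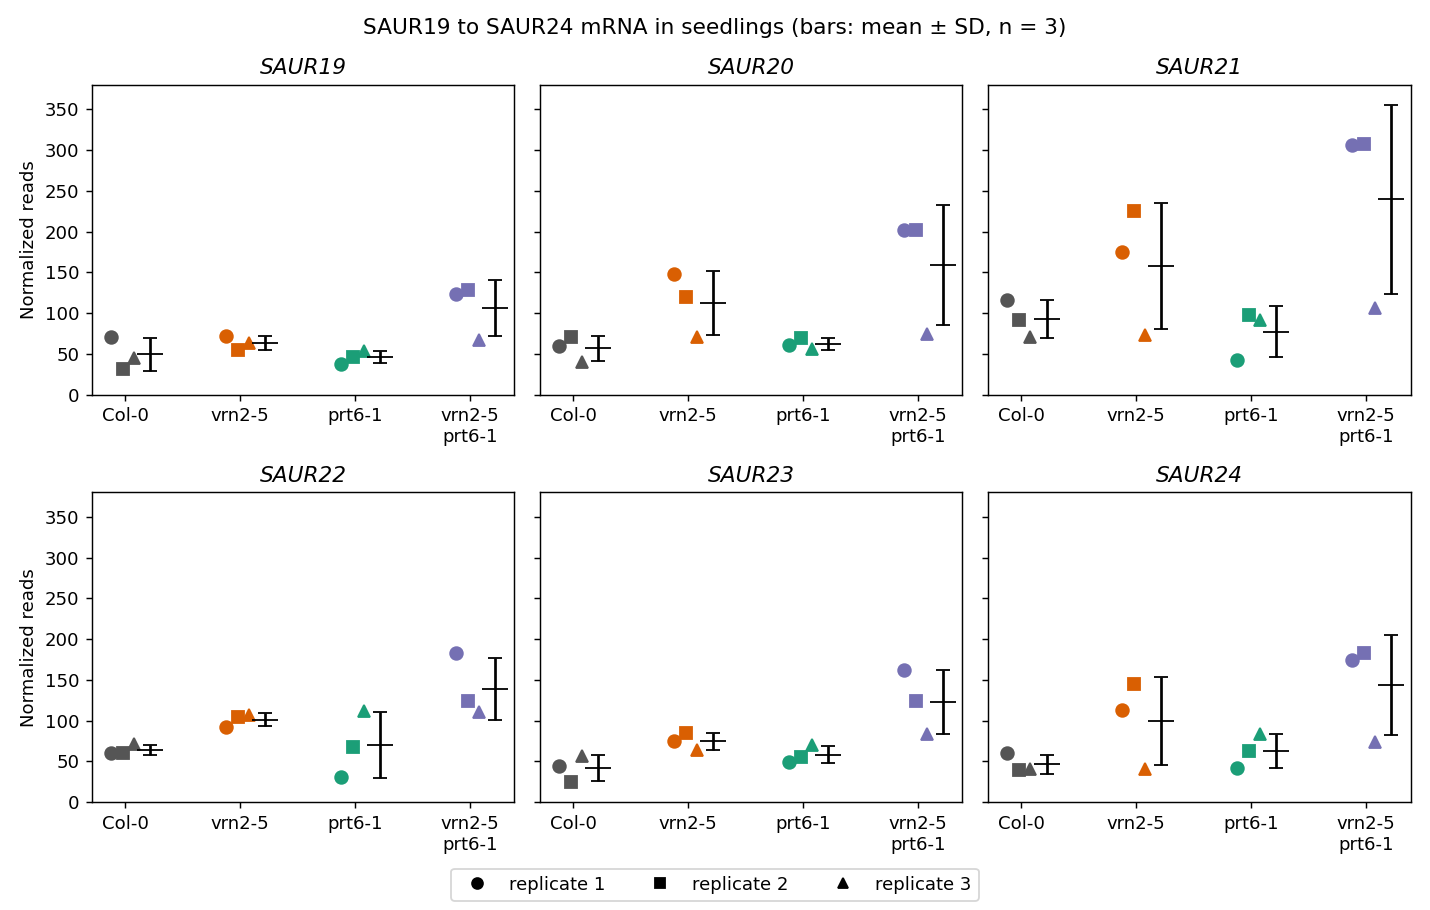
Normalized reads (y axis, shared by all panels) of each gene in each seedling library (points, shaped by replicate number), by genotype (x axis), with the mean and SD of the 3 libraries beside them. The 2 highest values of each gene belong to the double mutant, and its replicate 3 (triangle) is the lowest of its 3 libraries in every panel.

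On the log2(value + 5) scale the differences of vrn2-5 from Col-0 ran from 0.39 for SAUR19 (SE 0.315) to 0.90 for SAUR20 (SE 0.390), with a median of 0.72 beside 0.00 for all genes tested. SAUR23 stood at 0.81 (SE 0.308), SAUR24 at 0.87 (SE 0.473), SAUR22 at 0.63 (SE 0.361) and SAUR21 at 0.63 (SE 0.499). By limma with Benjamini-Hochberg adjustment 0 of the 6 passed (adjusted p = 1 for each), as 0.0238% of all genes did in either direction. SAUR20 and SAUR23 had an unadjusted limma p under 0.05, against 1.34% of all genes in this direction. Tests of the recovered reads by edgeR and DESeq2 also passed 0 of the 6. The median difference of the 6 genes was 0.94 over replicates 1 and 2, with all 6 above 0, and 0.31 in replicate 3 alone, with 5 of 6 above 0 (SAUR24 at -0.033). Over the shallow libraries (2 against 2) it was 0.55 with all 6 above 0.

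With the prt6-1 mutation present on both sides, the vrn2-5 difference was larger in value, 0.98 to 1.51 on the log2 scale. It was positive for all 6 genes, as for 50.1% of all genes. SAUR21 read 41.9, 98.2 and 92.0 normalized reads in prt6-1, against 306, 307 and 106 in vrn2-5 prt6-1. SAUR20 read 61.0, 69.6 and 56.0 in prt6-1, against 202, 202 and 73.8 in the double mutant. SAUR19 read 38.1, 46.2 and 53.6 in prt6-1, against 124, 128 and 66.5 in the double mutant. The groups of these 3 genes did not overlap, and in each the double mutant's replicate 3 came close to the prt6-1 libraries. SAUR23 read 49.6, 55.4 and 70.0 in prt6-1, against 162, 124 and 83.8 in the double mutant, also without overlap. SAUR24 read 41.9, 62.6 and 84.0 in prt6-1, against 175, 183 and 73.3 in the double mutant. SAUR22 read 30.5, 68.0 and 111 in prt6-1, against 183, 124 and 110 in the double mutant. These last 2 genes overlapped, SAUR22 by about 1 normalized read. The 4 genes without overlap compare with 3.56% of all genes in this direction.

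The log2 differences of the double mutant from prt6-1 were 1.51 for SAUR21 (SE 0.499), 1.16 for SAUR20 (SE 0.390), 1.08 for SAUR19 (SE 0.315), 1.08 for SAUR24 (SE 0.473), 1.07 for SAUR22 (SE 0.361) and 0.98 for SAUR23 (SE 0.308). Their median was 1.08, beside 0.00 for all genes tested, and in linear terms the 6 values ran from 1.98-fold to 2.84-fold. All 6 had an unadjusted limma p under 0.05, which 0.725% of all genes had in this direction. By limma 0 of the 6 passed after adjustment (adjusted p = 1 for each), and 0.0% of all genes passed in this comparison; edgeR and DESeq2 on recovered reads also passed 0 of the 6. Over deep libraries alone (2 against 2) the median was 0.83 with all 6 above 0. In replicates 1 and 2 it was 1.58, while in replicate 3 alone 4 of 6 were above 0 with a median of 0.22.

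**Figure D2:**
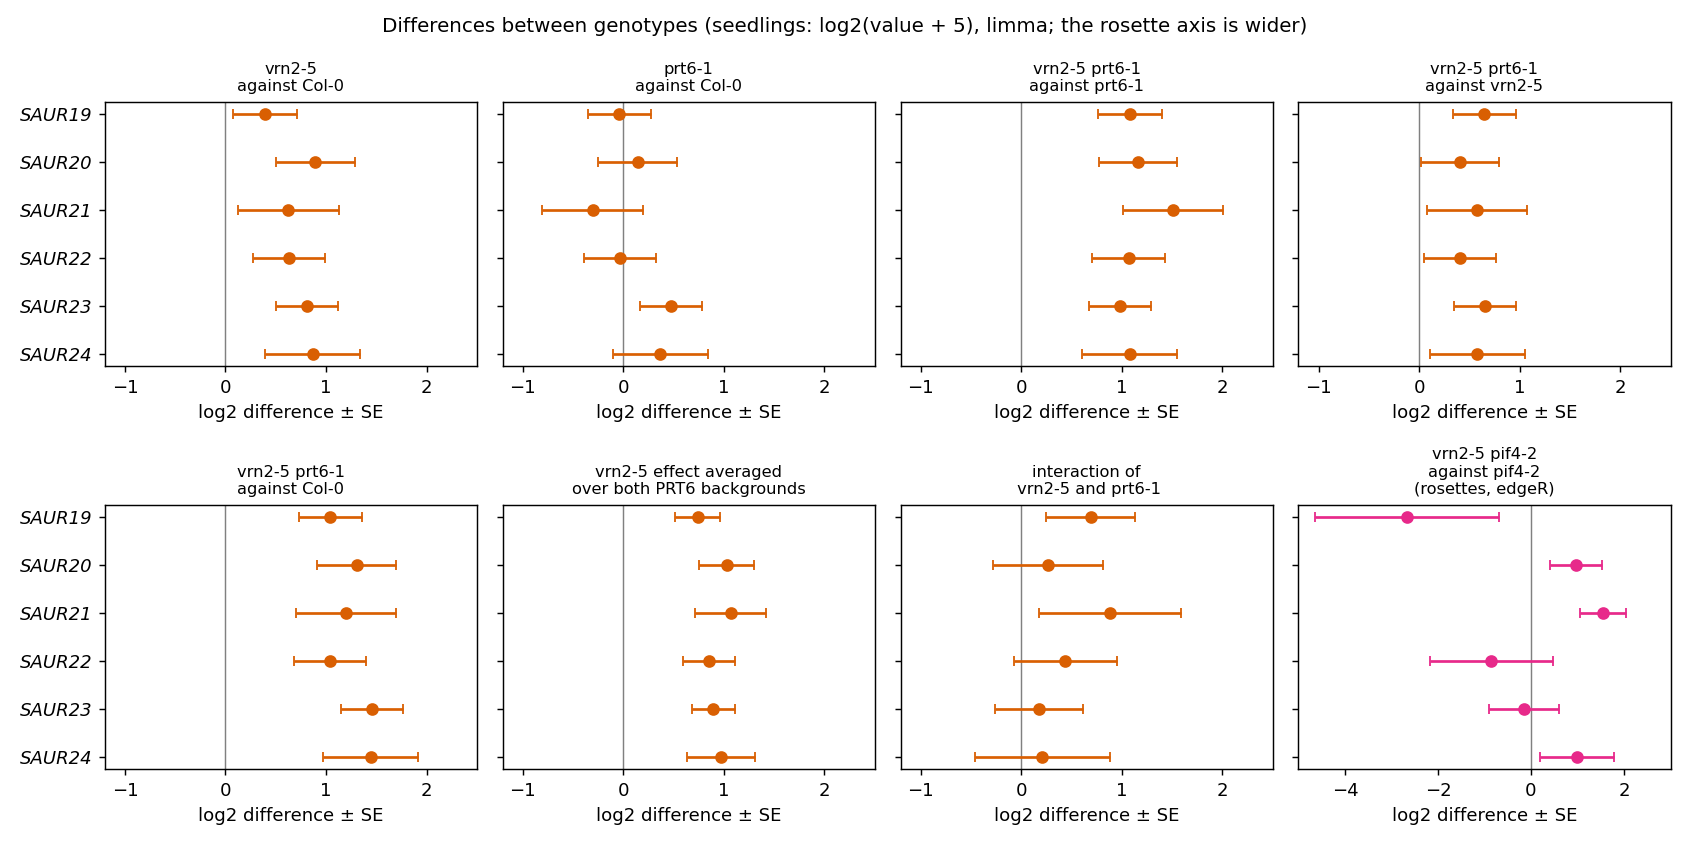
Log2 difference of each of the 6 genes (points) with its SE (bars) in the 8 comparisons, one panel each; seedling panels share an x axis from limma on log2(value + 5), and the rosette panel, from edgeR on counts, has a wider one. Points lie right of 0 for all 6 genes in every seedling comparison that sets a vrn2-5 line against its control, and on both sides of 0 in prt6-1 against Col-0 and in rosettes.

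The difference that prt6-1 alone made was small and of mixed sign, positive for 3 of the 6 genes and for 50.7% of all genes. Against Col-0, SAUR23 stood at 0.48 (SE 0.308), SAUR24 at 0.37 (SE 0.473), SAUR20 at 0.14 (SE 0.390), SAUR22 at -0.031 (SE 0.361), SAUR19 at -0.040 (SE 0.315) and SAUR21 at -0.31 (SE 0.499). By limma 0 of the 6 passed (adjusted p = 1 for each), where 0.184% of all genes did, and 0 of the 6 had an unadjusted p under 0.05, which 2.36% of all genes had in the higher direction. The groups of every member overlapped, while 4.9% of all genes lay wholly higher. The sign of SAUR22 turned with edgeR (0.19) and DESeq2 (0.20), and the signs of SAUR19, SAUR20, SAUR21 and SAUR22 turned when single libraries were left out. In deep libraries all 6 lay above 0 (median 0.34) and in shallow ones 1 of 6 did (median -0.24).

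Adding prt6-1 to vrn2-5 gave positive values for all 6 genes and for 51.7% of all genes (members' median 0.58, from 0.41 for SAUR22 to 0.65 for SAUR23), yet by limma 0 of the 6 passed (adjusted p from 0.832 to 0.927), where 0.208% of all genes did. No member had an unadjusted p under 0.05, where 3.66% of all genes had in the higher direction, and SAUR22 alone did not overlap, as 5.96% of all genes did in this direction. The root marker list had values of the same sign in this comparison, with 3 of 3 positive and a median log2 difference of 0.63; its part in the result was not tested. In deep libraries 5 of 6 members were above 0, with a median of 0.18, and in shallow ones all 6, with a median of 1.07.

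The double mutant set against Col-0 gave positive values for all 6 genes and for 51.6% of all genes. SAUR23 differed by 1.46 (SE 0.308; adjusted p = 0.202 by limma), a mean of 123 normalized reads (SD 39.2) against 42.1 (SD 16.1, n = 3 each). SAUR24 followed at 1.44 (SE 0.473), SAUR20 at 1.30 (SE 0.390), SAUR21 at 1.20 (SE 0.499), SAUR19 at 1.04 (SE 0.315) and SAUR22 at 1.04 (SE 0.361), with adjusted p from 0.635 to 0.907 by limma. Thus 0 of the 6 passed, where 0.208% of all genes did in either direction, while all 6 had an unadjusted p under 0.05, against 2.94% of all genes in this direction. SAUR20, SAUR22, SAUR23 and SAUR24 did not overlap between the groups, as 5.23% of all genes did not. With replicates 1 and 2 alone, a choice made after the data were seen, SAUR20 passed at 1.56 (adjusted p = 0.0386 by limma), as 1 of 64 genes that passed in all. In replicate 3 alone all 6 genes lay above 0, with a median of 0.58. The comparisons with Col-0 share its 3 libraries, and those that involve the double mutant share its libraries too, so their values are not independent of each other.

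Averaged over the lines with and without prt6-1, the vrn2-5 difference was 0.74 to 1.07 for the 6 genes (above 0, as in 49.0% of all genes) with a median of 0.93, beside -0.0047 for all genes tested. SAUR23 had the smallest SE (0.90, SE 0.218) and SAUR21 the highest value (1.07, SE 0.353). By limma 0 of the 6 passed (adjusted p = 1.00 for each) and 0.0% of all genes did; all 6 had an unadjusted p under 0.05, against 1.56% of all genes in this direction. Whether the vrn2-5 difference depended on prt6-1 was tested by the interaction, which was positive for all 6 genes and for 51.3% of all genes (members from 0.17 for SAUR23 to 0.88 for SAUR21, median 0.35) and passed for 0 of them (adjusted p = 1.00 by limma; 0.00595% of all genes passed). No member had an unadjusted interaction p under 0.05, where 0.85% of all genes had one in the positive direction. The larger values in the prt6-1 background were therefore not shown to differ from those in the wild-type background.

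The sum over the 6 genes does not depend on how reads were divided among them. It was 412, 319 and 325 normalized reads in Col-0 (mean 351.9, SD 52.5), against 676, 735 and 419 in vrn2-5 (mean 609.7, SD 168). It was 263, 400 and 467 in prt6-1 (mean 376.8, SD 104), against 1152, 1068 and 514 in vrn2-5 prt6-1 (mean 911.3, SD 347, n = 3 each). Every library of vrn2-5 and of the double mutant lay above every library of its control, with replicate 3 the lowest of both mutant groups. Replicate 3 was the lowest library of all 6 genes in the double mutant, of 4 in vrn2-5, of 2 in Col-0 and of 1 in prt6-1. In vrn2-5 that replicate was also a shallow library (125 reads over the 6 genes), whereas in the double mutant it was a deep one (1900 reads).

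**Figure D3:**
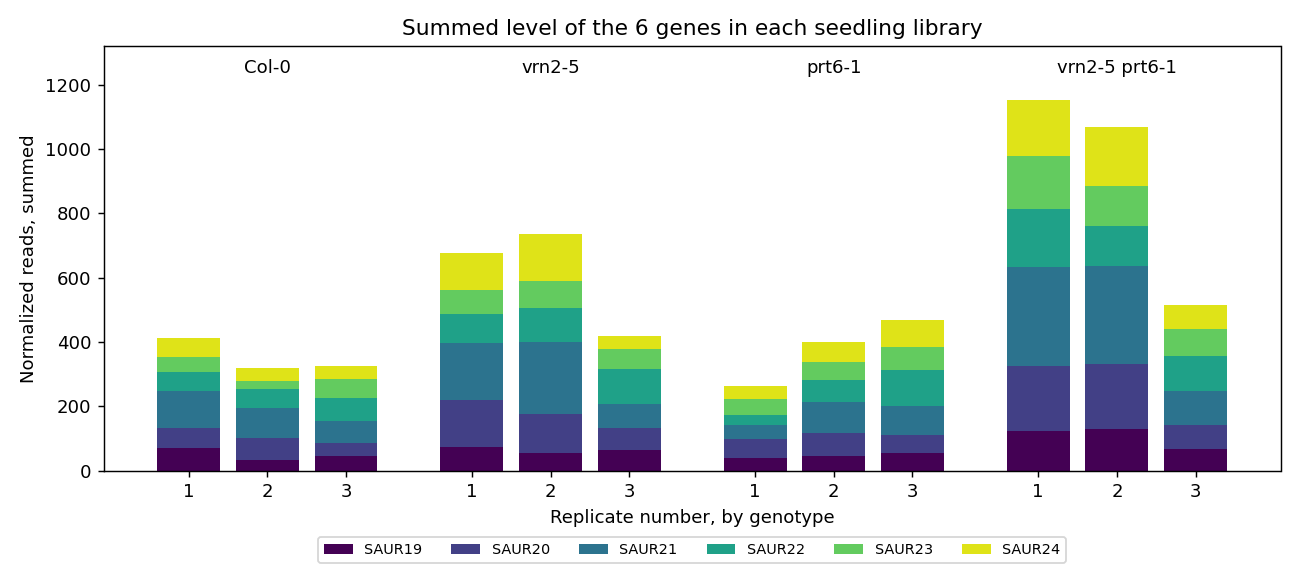
Summed normalized reads of the 6 genes (y axis) in each of the 12 seedling libraries (bars, grouped by genotype on the x axis), stacked by gene. The sum reaches 1152 and 1068 in replicates 1 and 2 of the double mutant and 514 in its replicate 3, and stays between 263 and 467 in Col-0 and prt6-1.

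The 6 genes followed each other across the 12 seedling libraries. Pearson correlations of log2(value + 5) between members ran from 0.616 (SAUR20 with SAUR22) to 0.929 (SAUR21 with SAUR24). These are descriptions over 12 libraries of 4 genotypes, the genes share those libraries and their depth, and reads shared between copies would also raise them. Among the 16820 genes tested, those outside the cluster most like the mean of the members were AT5G20190, a tetratricopeptide repeat gene (r = 0.916 over 12 libraries), AT5G66580 (r = 0.903), AT3G50340 (r = 0.898), RTFL16, of the ROTUNDIFOLIA-like family of small peptides (r = 0.894), and RLP26, a receptor-like protein (r = 0.886). Next came AT5G12050 (r = 0.885), WAK2, a wall-associated kinase (r = 0.880), HAT3, a homeodomain-leucine zipper factor (r = 0.869), AT3G56060, an oxidoreductase gene (r = 0.866), and SHY2, the Aux/IAA repressor also called IAA3 (r = 0.858). Over the 8 libraries of replicates 1 and 2 the same 10 genes gave r from 0.880 (AT3G56060) to 0.948 (SHY2), but they were no longer the 10 most alike. Of the listed genes HAT2 (r = 0.984), SAUR10 (r = 0.968), SAUR63 (r = 0.966) and IAA19 (r = 0.959) then stood above all of them, against 0.844, 0.773, 0.807 and 0.787 over the 12 libraries.

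In rosettes, all of which carried pif4-2, the cluster as counted split into a higher and a lower trio. These levels depend on how reads were divided among the copies. The contrast with seedlings was not tested. In pif4-2 the authors' FPKM, a level per length, averaged 14.4 for SAUR24 (SD 1.43), 13.7 for SAUR20 (SD 3.86) and 13.1 for SAUR21 (SD 1.75, n = 2 each). It averaged 2.95 for SAUR23 (SD 0.0239), 2.38 for SAUR22 (SD 0.258) and 1.70 for SAUR19 (SD 0.771). Ranges overlapped within the upper trio, while those of SAUR21 and SAUR23 did not. SAUR21 stood above 85.0% and SAUR19 above 23.8% of the 21884 rosette genes by mean FPKM over the 4 libraries.

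**Figure D4:**
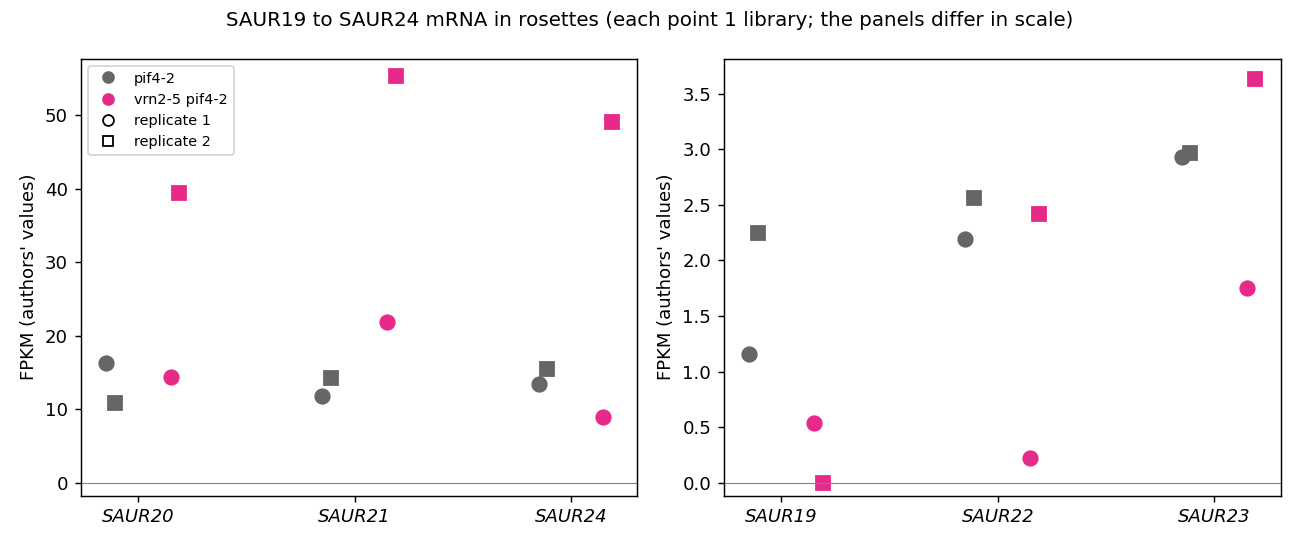
The authors' FPKM (y axis, with a different scale in each panel) of the 6 genes in each rosette library (points, coloured by genotype and shaped by replicate number). SAUR20, SAUR21 and SAUR24 (left) lie between 8.90 and 55.4, SAUR19, SAUR22 and SAUR23 (right) between 0 and 3.63, and replicate 2 of vrn2-5 pif4-2 is the highest library of all 3 genes on the left.

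The 2 rosette genotypes were not separated by any member after adjustment, and the 2 libraries of vrn2-5 pif4-2 lay far apart. SAUR21 had 230 and 295 counts in pif4-2 and 323 and 1106 in vrn2-5 pif4-2, or 10.3 and 12.05 against 20.3 and 42.0 CPM, without overlap. SAUR24 had 8.72 and 9.72 CPM in pif4-2 and 6.16 and 27.8 in vrn2-5 pif4-2. SAUR20 had 10.2 and 6.61 CPM in pif4-2 and 9.61 and 21.5 in vrn2-5 pif4-2. Both of these overlapped, with replicate 1 of the mutant within or below the pif4-2 values and replicate 2 above them. SAUR23 had 2.46 and 2.41 CPM in pif4-2 and 1.57 and 2.66 in vrn2-5 pif4-2. SAUR22 had 38 and 47 counts in pif4-2 and 3 and 43 in vrn2-5 pif4-2. SAUR19 had 17 and 35 counts in pif4-2 and 6 and 0 in vrn2-5 pif4-2, where the 0 allows up to 0.114 CPM (3 counts, counting error only). Both mutant libraries lay below both pif4-2 libraries in CPM for SAUR19 and SAUR22.

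By edgeR the log2 differences in rosettes, positive for 3 of the 6 members and for 49.2% of all genes, were 1.55 for SAUR21 (SE 0.496), 0.99 for SAUR24 (SE 0.788), 0.96 for SAUR20 (SE 0.556), -0.14 for SAUR23 (SE 0.753), -0.85 for SAUR22 (SE 1.32) and -2.66 for SAUR19 (SE 1.97). By edgeR 0 of the 6 passed (adjusted p from 0.945 to 0.979), 0.0% of all genes did, and DESeq2 also passed 0 of the 6. Only SAUR21 had an unadjusted edgeR p under 0.05 (0.0268), against 1.24% of all genes in this direction. In CPM SAUR21, SAUR19 and SAUR22 did not overlap between the groups. This held for 33.4% of all genes in either direction and, wholly higher as in SAUR21, for 17.5%. In FPKM SAUR22 did overlap, at 2.19 and 2.56 in pif4-2 and 0.228 and 2.42 in vrn2-5 pif4-2. The authors' deposited table gives 1.56 for SAUR21 (p = 0.00494, adjusted p = 0.987 by the authors' analysis, for which DESeq2 is named) and lists no member below an adjusted p of 0.987. Summed over the 6 genes the level was 34.1 and 34.1 CPM in pif4-2 and 38.2 and 95.5 in vrn2-5 pif4-2, so the size of the difference rested on replicate 2. With replicate 1 of vrn2-5 pif4-2 left out, edgeR passed 4 members and 11464 genes in all, and with its replicate 2 left out, 2 members and 1825 genes, the lone library being assumed to vary like the pair of pif4-2. PRT6 mRNA also set these mutant libraries apart, at 100 CPM in replicate 1 and 26.8 in replicate 2, against 108 and 98.5 in pif4-2. Of the 3 root markers 2 were measured in rosettes, and they summed to 2.73 to 3.39 CPM in pif4-2 and 6.12 to 9.30 in vrn2-5 pif4-2; their part in the result was not tested.

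The genes that act downstream of SAUR proteins had list medians near 0 in seedlings. Of 9 PP2C.D phosphatase genes 0 passed in any comparison, and their median averaged vrn2-5 difference was 0.01 in seedlings. PP2C.D1, with the highest value on this list, differed by 0.65 (SE 0.226; adjusted p = 1.00 by limma). Of the 7 plasma membrane H+-ATPase genes tested in seedlings 0 passed, and the median was 0.00. AHA2, a main proton pump of growing tissue, averaged 4066 normalized reads in Col-0 (SD 157) and 3590 in vrn2-5 (SD 646, n = 3 each). In rosettes 0 of 9 phosphatases and 0 of 9 pumps passed by edgeR, with medians of 0.12 and -0.39. All genes tested had a median of -0.0047 for the averaged seedling effect and of -0.01 in rosettes.

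Among 12 upstream regulators tested in seedlings (PIF factors, HY5, PHYB, BZR1, auxin response factors and auxin receptors) 0 passed, and the median averaged vrn2-5 difference was -0.17. PIF4 averaged 502 normalized reads in Col-0 (SD 104) and 363 in vrn2-5 (SD 195), a difference of -0.57 (SE 0.337; adjusted p = 1 by limma). Other genes that PIF factors induce had values of the same sign as the cluster in seedlings. All 8 tested, against 49.0% of all genes, had a positive averaged vrn2-5 difference, with a median of 0.75, and 0 passed by limma. Of these, IAA19, an Aux/IAA repressor, stood at 1.12 (SE 0.361), CKX5, a cytokinin oxidase, at 1.07 (SE 0.217) and HAT2, a homeodomain factor, at 0.80 (SE 0.234). In rosettes 3 of 8 were positive, beside 49.2% of all genes, with a median of -0.49, and 0 passed by edgeR.

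The rest of the SAUR family had a lower median than the cluster in seedlings. Of 63 other SAUR genes 44 could be tested in seedlings. Of these, 34 had a positive averaged vrn2-5 difference, against 49.0% of all genes, and the median was 0.31. By limma 0 passed, and 2 had an unadjusted p under 0.05, against 1.56% of all genes in this direction. The 5 of lowest p were SAUR46 at 0.83 (SE 0.307), SAUR10 at 0.75 (SE 0.339), SAUR28 at 0.69 (SE 0.330), SAUR66 at 0.61 (SE 0.317) and SAUR26 at 0.85 (SE 0.464), each with an adjusted p of 1.00 by limma. SAUR46 averaged 15.9 normalized reads in Col-0 (SD 10.7) and 32.2 in vrn2-5 (SD 6.90). Several of these were thus low genes, whose change the log2(value + 5) scale understates. In the double mutant against Col-0 the median of the other SAUR genes was 0.62, beside 1.25 for the 6 clustered genes. In rosettes 40 of 49 other SAUR genes were positive, against 49.2% of all genes, with a median of 0.44, and 0 passed by edgeR. The difference between the cluster and the other family members was not tested.

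Genes next to the cluster were counted as well. Of 17 neighbours from AT5G17900 to AT5G18190 tested in seedlings, 9 had a positive averaged vrn2-5 difference, beside 49.0% of all genes. The median of the neighbours was 0.01, and 0 passed by limma. AT5G18040, which lies between SAUR21 and SAUR22 and belongs to the heat-induced targets of TAS1 small RNA (HTT2), differed by 0.19 in vrn2-5 against Col-0 (SE 0.278; adjusted p = 1 by limma), with 93.7, 60.2 and 63.5 normalized reads in Col-0, against 63.9, 110 and 77.1 in vrn2-5. Its groups overlapped.

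Chromatin was compared to ask whether VRN2 or H3K27me3 lay on the 6 genes. None of the 6 gene bodies or 1 kb upstream stretches held a VRN2-YFP peak in at least 2 of the 3 lists, where 4.45% of 21713 nuclear genes did and 4 of 61 other SAUR genes did. None overlapped an H3K27me3 region in at least 2 of the 3 tables either, where 28.2% of genes did and 23 of 61 other SAUR genes did. A region called lower in vrn2-5 likewise covered 0 of the 6, against 9.78% of genes and 11 of 61 other SAUR genes, and a region called higher covered 0 of the 6, against 2.66% of genes. Counting a single list as enough (15.6% of genes for peaks, 39.0% for regions), or reaching 2 kb upstream, still gave 0 of the 6. These are the authors' called peaks and regions, so signal below their thresholds was not examined. How chromatin reads were placed among the similar copies is not given either. The counts of 0 therefore do not show that the 6 genes lack VRN2 or the mark.

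One H3K27me3 region did lie inside the cluster, in the stretch between SAUR21 and AT5G18040. In replicate 1 it ran from 5970401 to 5972199 with 310 reads in library A and 468 in library B, in replicate 2 from 5970401 to 5971599 with 138 and 175, and in replicate 3 from 5970601 to 5971799 with 158 and 162. The authors' normalized ratio of A to B was 0.768, 0.696 and 0.811, each below 1, with a false discovery rate of 5.35e-08, 2.82e-05 and 0.0227 in the authors' tables. Which genotype A and B stand for is not stated in the headers. Here A was taken as vrn2-5 and B as Col-0, since the comparison names them in that order, and on that reading the mark was lower in vrn2-5 in all 3 replicates. Of the 3985 regions of replicate 1 with a partner in both other tables, 17.3% were lower in all 3. Regions called lower made up 63.9%, 26.9% and 24.2% of all regions in replicates 1, 2 and 3. The ratio of this region was above that of 21.9%, 2.68% and 6.51% of regions in the same order. Each table sets 1 vrn2-5 library against 1 Col-0 library, so the rate within a table carries no replicate error. The stretch common to the 3 regions is 999 bp and began 1411 bp beyond the end of SAUR21, which points towards it, so it lies downstream of SAUR21 and upstream of AT5G18040. SAUR22, on the minus strand beyond AT5G18040, has its 3′ end towards the region, 2142 to 2742 bp away.

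VRN2-YFP peaks near the cluster were seen in single lists. Replicate 3 held a peak at 5971261 to 5971605, within the same stretch, with a fold over background of 2.04 and a -log10 q of 5.77, a fold above that of 65.7% of the 4586 peaks in that list. Replicates 1 and 2 had none there. A further peak of replicate 3 at 5961453 to 5961764 lay 1009 bp from SAUR19 and overlapped the 5′ end of VDD, a gene of a B3-domain factor. The nearest peak found in replicates 1 and 2 (5956011 to 5956659 and 5956002 to 5956565, fold 2.94 and 2.40) lay 6114 and 6208 bp from SAUR19, in AT5G17980. SAUR19 was the member nearest to a peak in each list, and SAUR24 the farthest, at 27024, 27118 and 12078 bp in replicates 1, 2 and 3. The median gene lay 16702, 16783 and 11153 bp from a peak in the same lists. In replicates 1 and 2 SAUR22, SAUR23 and SAUR24 were farther from a peak than the median gene, and in replicate 3 SAUR24 was.

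**Figure D5:**
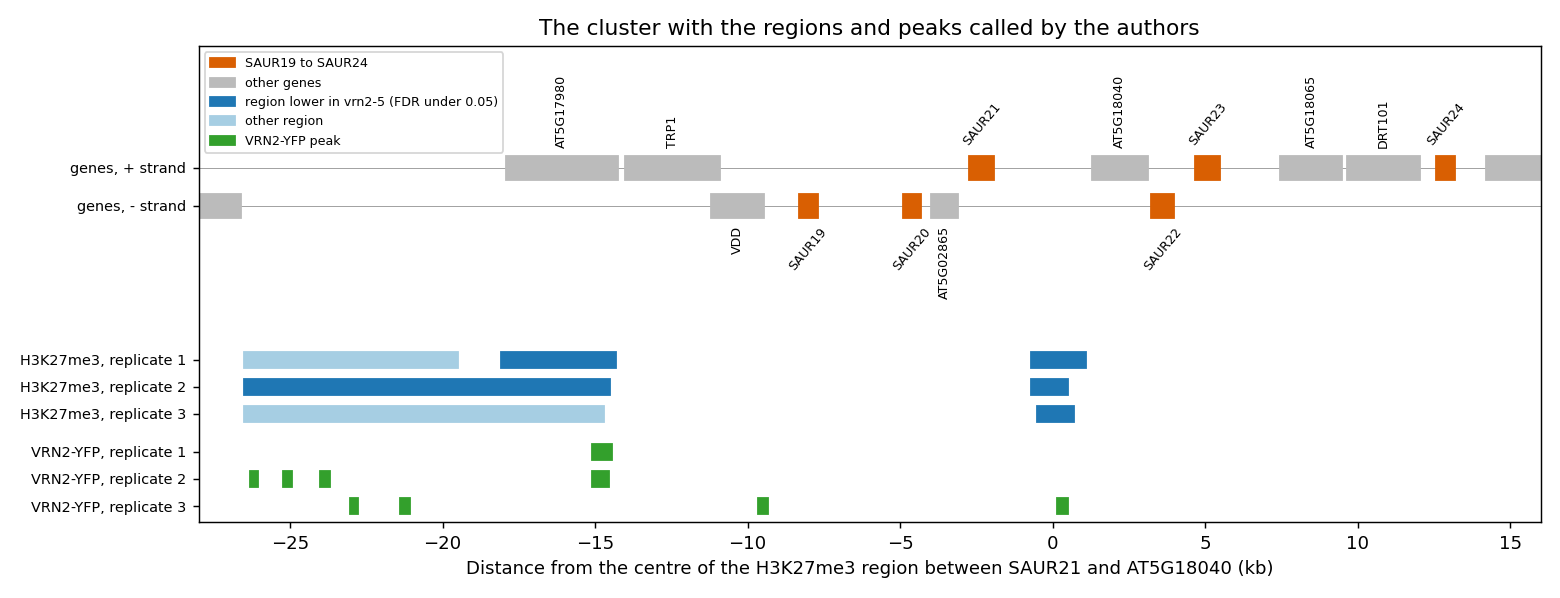
The cluster with its neighbours by strand (boxes, upper rows) and, below, the authors' H3K27me3 regions and VRN2-YFP peaks of each replicate, drawn to scale against distance in kb from the centre of the stretch common to the 3 H3K27me3 regions (x axis). A region stands in all 3 replicates at 0 kb, between SAUR21 and AT5G18040, with a VRN2-YFP peak in replicate 3 only, and no box overlaps a SAUR gene.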

How the data were processed

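The submitters' processing notes name TAIR10 as the build, Bowtie and DESeq2 for mRNA, BWA for chromatin, SICER for H3K27me3, MACS2 for VRN2-YFP replicate 1 and MACS3 for replicate 2, without versions or settings, and no caller for replicate 3. The antibody text of the labels' protocols is the same for VRN2-YFP and H3K27me3 samples, so the histone antibody is not given either. The authors deposited seedling values as a normalized signal, reads divided by a size factor. All of its values were whole multiples of 1 read within a tolerance of 0.01 (100% of values), which gave recovered reads. For rosettes the authors deposited raw counts, FPKM, a log2 fold change with p-values, and gene coordinates (of the kind other than a measurement). The peak lists deposited by the authors give a fold over background, taken as a ratio, and the -log10 of q per peak, with peaks called per replicate. The H3K27me3 tables deposited by the authors give counts, a ratio and p-values as false discovery rates per region.

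Seedlings were tested with limma 3.58.1 (R 4.3.3, trend and moderated variance) on log2(value + 5) in a single fit of the 12 libraries by genotype, for the 16820 of 18480 genes whose mean reached 10. This scale understates the change of low genes. Rosettes were tested with edgeR 4.0.16 (quasi-likelihood, TMM) for 18561 of 21884 genes, with SE derived from the F statistic, and CPM was computed from the counts. P-values were two-sided and adjusted by Benjamini-Hochberg over all genes tested, at a threshold of 0.05. DESeq2 1.42.0 and edgeR on recovered reads were alternatives. The scripts were tested on simulated data. Each gene named is a member, belongs to a list, or follows a rule (the 5 other SAUR genes of lowest p for the averaged vrn2-5 effect, the 10 genes most correlated with the members' mean); individual list genes (PP2C.D1, AHA2, PIF4, IAA19, CKX5, HAT2, SAUR63, AT5G18040, DRT101) were picked after their values were seen. Members and lists were chosen with earlier results of these data known. RefSeq names of TAIR10.1 served for symbols; 2 of the 63 other SAUR genes matched by name only, a U-box gene that RefSeq also calls SAUR21 and the long noncoding RNA AT5G02865.

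Only in vrn2-5 prt6-1 against vrn2-5 did every same-numbered pair of libraries deviate together (every correlation above 0.1, 0.179 to 0.288). The main fit was by genotype only, so samples were not paired in that comparison either. The replicate 3 libraries deviated together over all genes tested in every seedling comparison. Their correlation was 0.328 in vrn2-5 and 0.560 in prt6-1 against Col-0, and 0.508 in the double mutant against Col-0. It was 0.499 in the double mutant against prt6-1 and 0.288 against vrn2-5. Against prt6-1, same-numbered replicates 1 and 2 gave -0.215 and -0.216. Double mutant 1 with prt6-1 2, both deep, gave 0.443, and double mutant 2 with prt6-1 1, both shallow, gave 0.394. Other deep pairs of unlike number gave -0.063 (double mutant 1 with prt6-1 3) and -0.124 (double mutant 3 with prt6-1 2). The part of these deviations in the members' replicate 3 values was not tested. Intervals and floors cover counting error only. No sequences are shown.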

Additional observations from a re-analysis of the deposited data

Results flagged for a closer look

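For 2 genes, seedling values and rosette CPM went opposite ways. In each, every seedling library of a vrn2-5 line lay above the mean of its control. Every vrn2-5 pif4-2 rosette library lay below the mean of pif4-2 in CPM. In FPKM the rosette part held for SAUR19 only. SAUR22 had 2.42 FPKM in replicate 2 of vrn2-5 pif4-2, against a pif4-2 mean of 2.38. SAUR19 stood at 0.39 (SE 0.315) in vrn2-5 against Col-0 and 1.08 (SE 0.315) in vrn2-5 prt6-1 against prt6-1, but at -2.66 (SE 1.97) in rosettes. SAUR22 stood at 0.63 (SE 0.361) and 1.07 (SE 0.361) in the same seedling comparisons, and at -0.85 (SE 1.32) in rosettes. Its rosette value ran from -3.34 to -0.014 with single libraries left out. The difference between seedlings and rosettes was not tested. The tables differ in tissue, in the pif4-2 mutation and in scale, so these cannot be told apart, and SAUR19 and SAUR22 were among the 3 members with the fewest rosette counts.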

How the results depend on the processing

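In every seedling comparison 0 of the 6 genes passed with a pseudocount of 1, no minimum mean, edgeR or DESeq2 on recovered reads, replicate 3 as a term, only the 6 libraries compared, or any library left out. The exception was the use of replicates 1 and 2 alone, chosen after seeing the data, where 1 member passed in vrn2-5 prt6-1 against Col-0, among 64 genes in all. A replicate block gave 0 members passing in every comparison and changed no call. The deviations of same-numbered rosette libraries correlated at 0.0455. With 2 libraries per group, crossed numbers give -0.0455 by construction, so this is a single value whose sign rests on the numbering. In rosettes 0 passed with DESeq2, no filter or library size only, and 0 to 4 passed with single libraries left out, where an arm held 1 library. Signs turned in these cases, and the cause was not tested. For prt6-1 against Col-0 SAUR22 gave 0.19 with edgeR and 0.20 with DESeq2, and SAUR20 gave -0.00014 with replicates 1 and 2. With single libraries left out, values for prt6-1 against Col-0 ran from -0.29 to 0.24 (SAUR19), -0.067 to 0.30 (SAUR20), -0.51 to 0.058 (SAUR21) and -0.43 to 0.43 (SAUR22). For the interaction they ran from -0.024 to 0.73 (SAUR20), -0.021 to 0.84 (SAUR22), -0.050 to 0.47 (SAUR23) and -0.31 to 0.62 (SAUR24), and in rosettes from -0.75 to 0.26 (SAUR23) and -0.70 to 1.72 (SAUR24). In these fits no other member changed sign. Differences over part of the libraries, without a test, also turned for SAUR24 in vrn2-5 against Col-0 (-0.033) and SAUR22 (-0.014) and SAUR24 (-0.19) in vrn2-5 prt6-1 against prt6-1, all in replicate 3 alone. They turned for SAUR20 in vrn2-5 prt6-1 against vrn2-5 over deep libraries (-0.26). In prt6-1 against Col-0 they turned over shallow libraries for SAUR20 (-0.088) and SAUR24 (-0.19). In that comparison SAUR19, SAUR21 and SAUR22 turned positive over deep libraries (0.13, 0.41 and 0.28) and in replicate 3 alone (0.23, 0.36 and 0.62). Peak and region counts were 0 under every window, list and threshold tried. In shallow libraries single members rested on as few as 7 reads.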

Other observations

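Within the span of the cluster 1 gene outside the SAUR family had values like its neighbours. DRT101 (AT5G18070, a phosphoacetylglucosamine mutase gene, chromosome 5, 5980769 to 5983135, between SAUR23 and SAUR24) had 63.7, 53.1 and 49.1 normalized reads in Col-0 and 78.0, 89.9 and 87.1 in vrn2-5. It had 68.6, 58.7 and 59.1 in prt6-1 and 108, 133 and 55.2 in vrn2-5 prt6-1. Its averaged vrn2-5 log2 difference was 0.56 (SE 0.195; adjusted p = 1.00 by limma), and as in the SAUR genes replicate 3 was the lowest of the double mutant. In rosettes it differed by -0.42 (SE 0.512). AT5G18065, the other gene in that gap, had 0 to 31.9 normalized reads in Col-0 and 0 to 9.05 in vrn2-5. It had 8.01 to 38.1 in prt6-1 and 10.8 to 45.8 in vrn2-5 prt6-1. The long noncoding RNA AT5G02865, between SAUR20 and SAUR21, was measured in rosettes only, at 0.894 and 1.51 CPM in pif4-2 and 2.07 and 1.52 in vrn2-5 pif4-2.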
